A study of Homo sapiens with 9 samples.

Results

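EGF family ligands, ERBB receptors and the feedback inhibitor ERRFI1 were examined in MDA-MB-231 cells, an established line from a human breast adenocarcinoma that lacks estrogen receptor, progesterone receptor and amplified ERBB2. The set holds 9 genes, EGFR, ERBB2, ERBB3, AREG, EREG, HBEGF, TGFA, NRG1 and ERRFI1, chosen by symbol, and all 9 were found among the 24344 genes of the count table and passed the filter that left 14195 genes to test. The cells received 1 of 3 injections for 48 h, either Compound Kushen Injection (CKI), which combines the herbs Kushen and Baituling, or a single-herb injection of Kushen or of Baituling. CKI was given at 2.0 mg/mL of total alkaloids, and the single-herb injections were brought to the concentration that corresponds to it. The labels of all 9 samples also carry the same fraction, whose meaning is not given in the sources used here. Each group had 3 libraries, and untreated cells were not analysed here, so every value below sets one injection against another.

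ERBB receptors are tyrosine kinases of the cell surface that pair with each other when a ligand binds. AREG, EREG, HBEGF and TGFA bind EGFR, NRG1 binds ERBB3 and ERBB4, and ERBB2 has no known ligand and acts as the preferred partner of the other receptors. The ligands are made as membrane-bound precursors and released by proteases, and the receptors signal through RAS and ERK and through PI3K. ERRFI1 (also called MIG6) binds the kinase domain of EGFR and blocks it. MDA-MB-231 cells are known to express EGFR.

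The total count was 20144628 to 23782071 per library. Levels are in CPM, library-size-normalised counts after TMM scaling, which corrects library sizes for the composition of the RNA. In bulk RNA, fewer cells and less RNA per cell cannot be told apart. Of 7 genes that mark MDA-MB-231, such as VIM and CD44, 7 were at 10 CPM or more in every library, and their summed level ranged over 3060 to 3220 CPM for CKI, 4260 to 4320 CPM for Kushen and 8010 to 8320 CPM for Baituling. Among 6 genes listed as absent or low in this line, ESR1 had at most 3 counts and PGR at most 4, and CDH1 was at 0.443 to 2.82 CPM. EPCAM was at 6.93 to 13.8 CPM and GATA3 at 7.69 to 24.8, but KRT8 was at 505 to 1350.

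The study also grew A431, an epidermoid line with very high EGFR, and the markers of that line set Baituling replicates 2 and 3 apart. The summed level of 6 A431 markers was 13.5 CPM in Baituling replicate 2 and 16 CPM in replicate 3, against 0.403 to 0.732 CPM in the other 7 libraries. KRT5 had 93 and 124 counts in these libraries and 0 in all others, and KRT6A had 52 and 64 counts and likewise 0 elsewhere. Each comparison with Baituling was therefore also computed with Baituling replicate 1 as the only library of its group, a choice made after seeing the data, in which the lone library is assumed to vary like the other groups. Markers of HepG2, the other line of the study, were low, with 5 of 6 below 1 CPM in every library.

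CKI and Kushen were first set against Baituling. Cells given either injection with Kushen had more EGFR, ERBB3, AREG and TGFA RNA and less ERBB2, NRG1, EREG and ERRFI1 RNA than cells given Baituling alone (for EREG and ERRFI1 in CKI, on the TMM scale but not with library totals), whereas HBEGF was higher in CKI and lower in Kushen than in Baituling. In CKI against Baituling, 9 of 9 genes had an adjusted p under 0.05 (5 higher, 4 lower), where 76.1% of all genes tested did so (39.1% higher, 37% lower). For Kushen against Baituling it was again 9 of 9 (4 higher, 5 lower), where 71.6% of all genes did so (35.6% higher, 36.1% lower). The changes were moderate. With the fold threshold of the study added (more than 2-fold), 0 of the 9 genes were called in CKI against Baituling, against 19.1% of all genes, and NRG1 alone was called in Kushen against Baituling, against 15.2%. These comparisons share the Baituling libraries. With Baituling replicate 1 alone, 8 of 9 and 9 of 9 genes passed.

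The comparison of CKI with Kushen asks what the second herb contributes to the combination. Here the genes fell into those that differed and those that could not be told apart. HBEGF, EREG, NRG1 and ERRFI1 were higher in CKI, and TGFA and ERBB2 were lower, so 6 of 9 genes had an adjusted p under 0.05 (4 higher, 2 lower), where 39.8% of all genes did (19.6% higher, 20.2% lower). EGFR, ERBB3 and AREG did not pass. With the 2-fold threshold 0 of the 9 genes were called in edgeR, and also 0 in DESeq2 and limma-voom, where 1.9% of all genes were called in edgeR.

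**Figure D1:**
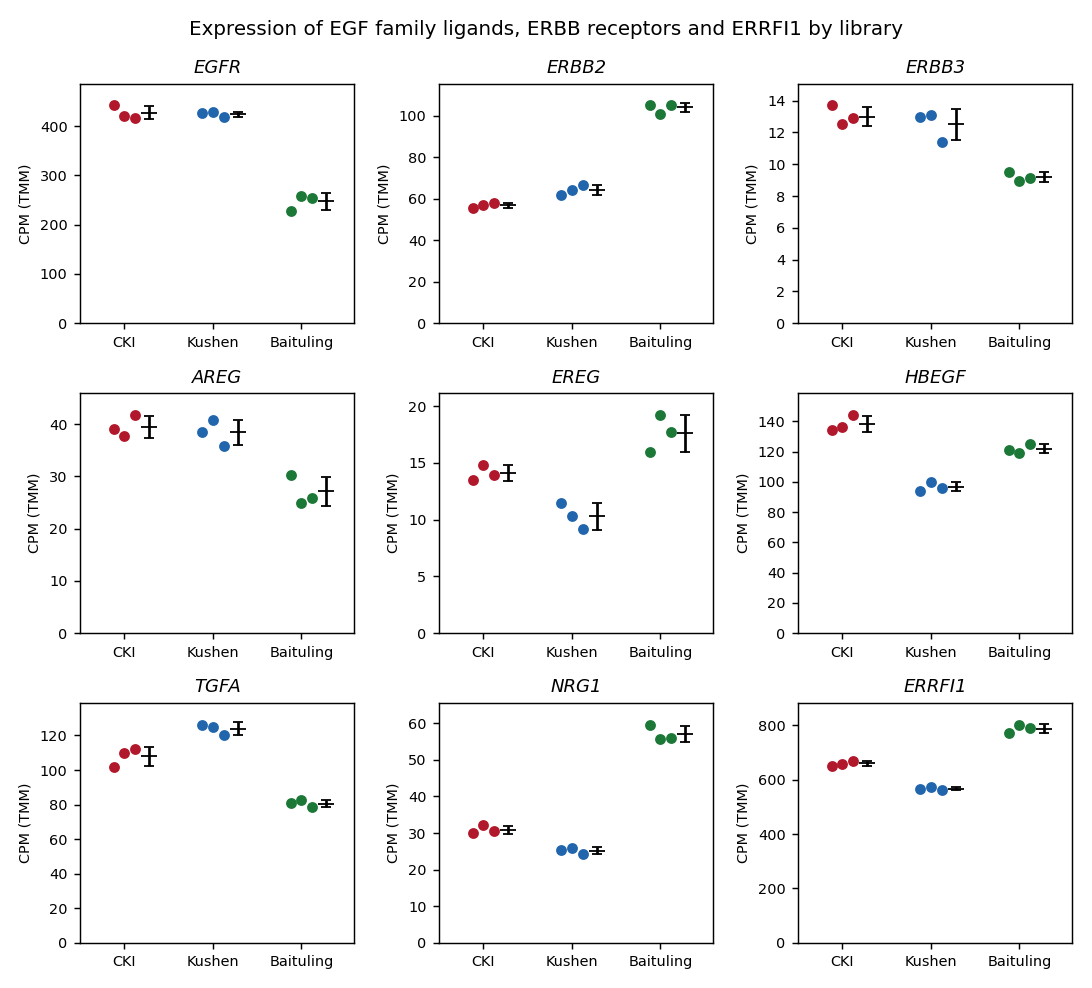
Expression of the 9 genes in each library, as TMM-scaled CPM on axes that start at 0. Coloured points are the 3 libraries of CKI, Kushen and Baituling, and the black mark beside them is the mean with its SD. EGFR libraries of CKI and Kushen lie at 417 to 442 CPM and those of Baituling at 228 to 258, while ERBB2 and NRG1 are highest in Baituling.

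EGFR (chromosome 7, 55086710 to 55279321, build GRCh37) was the most abundant receptor transcript. It stood at 442, 421 and 417 CPM in the CKI libraries, at 426, 429 and 419 CPM in the Kushen libraries and at 228, 258 and 255 CPM in the Baituling libraries. CKI and Kushen overlapped, and both lay clear of Baituling. The means were 427 ± 13.4, 424 ± 4.96 and 247 ± 16.6 CPM (SD, n = 3). EGFR was 1.73-fold higher in CKI than in Baituling (log2 fold change 0.79 ± 0.05 (SE), edgeR adjusted p 9.29e-12) and 1.72-fold higher in Kushen than in Baituling (0.78 ± 0.05, adjusted p 1.54e-11). With Baituling replicate 1 alone both values were 0.89. Between CKI and Kushen the log2 fold change was 0.01 with a 95% interval of -0.09 to 0.10 (adjusted p 0.901). EGFR overlaps the antisense gene EGFR-AS1, which averaged 0.113 to 0.226 CPM, and the libraries kept no strand.

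ERBB2 (chromosome 17, 37844167 to 37886679) had the reverse order. Its levels were 55.6, 56.9 and 57.8 CPM in CKI, 61.6, 64.2 and 66.4 CPM in Kushen and 105, 101 and 105 CPM in Baituling, and no groups overlapped. Against Baituling the log2 fold change of ERBB2 was -0.87 ± 0.05 for CKI (adjusted p 1.53e-12) and -0.70 ± 0.05 for Kushen (adjusted p 5.63e-11). It was also lower in CKI than in Kushen, by the small amount of -0.17 ± 0.05 (adjusted p 0.0059), which did not pass when library totals replaced TMM (-0.10, adjusted p 0.0893). ERBB2 overlaps PGAP3 and MIEN1 on the opposite strand. PGAP3 had the same order (9.56 CPM for CKI, 13.9 CPM for Kushen, 17.6 CPM for Baituling). MIEN1 did not (48.9 CPM for CKI, 51.6 CPM for Kushen, 47.2 CPM for Baituling). The part of either gene in the ERBB2 counts was not tested.

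ERBB3 (chromosome 12, 56470583 to 56497289), a receptor with little kinase activity of its own that signals through its partner, was the least abundant of the set per exon length. It was at 13.7, 12.5 and 12.9 CPM in CKI, at 13.0, 13.1 and 11.4 CPM in Kushen and at 9.51, 8.94 and 9.16 CPM in Baituling. All 6 libraries that received Kushen, alone or in CKI, lay above the 3 of Baituling. The log2 fold change was 0.50 ± 0.09 for CKI against Baituling (adjusted p 4.70e-05) and 0.44 ± 0.09 for Kushen against Baituling (adjusted p 0.00021). Between CKI and Kushen it was 0.06, with an interval of -0.12 to 0.23.

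EGFR and ERBB2 were also set against each other as a ratio within each library, which no library scaling can alter. The ratio was chosen after the values were seen. It comes from the same counts and does not show which of these genes changed. Per length of exon sequence, EGFR exceeded ERBB2 by 4.87 ± 0.249 times in CKI, by 4.29 ± 0.20 times in Kushen and by 1.54 ± 0.124 times in Baituling (SD, n = 3). The 3 CKI libraries gave 4.67 to 5.15, the Kushen libraries 4.08 to 4.48 and the Baituling libraries 1.41 to 1.65, so the groups did not overlap. With 3 libraries a group, the smallest two-sided p of an exact permutation test is 0.1. Of the summed level of the 3 receptors, EGFR took 80.2% ± 0.654 in CKI, 78.5% ± 0.526 in Kushen and 58.8% ± 2.01 in Baituling. ERBB3 took 3.33%, 3.15% and 2.98% in the same order. The sizes of these ratios and shares depend on the length used. Exon sequence spans 15941 bases for EGFR and 10321 for ERBB2, but their longest transcripts span 9905 and 4930.

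**Figure D2:**
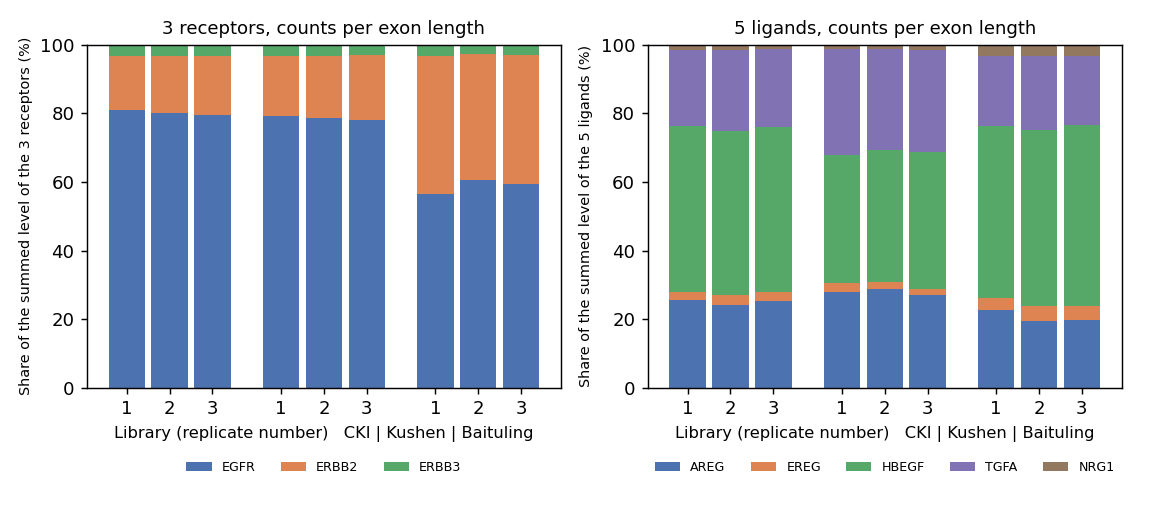
Share of each receptor (left) and of each ligand (right) in the summed level of its class, from counts per exon length, as stacked bars for each of the 9 libraries. ERBB2 fills 36.7% to 40.2% of the receptor bar in the Baituling libraries and 15.7% to 19.1% in the others, and TGFA takes a larger part of the ligand bar in Kushen (29.3% to 30.7%) than in the other groups, with HBEGF the largest part throughout.

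Among the 5 ligands of the set, NRG1 (neuregulin 1, chromosome 8, 31496738 to 32713184) had the largest changes against Baituling. Its levels were 29.9, 32.1 and 30.6 CPM in CKI, 25.4, 26.0 and 24.2 CPM in Kushen and 59.5, 55.7 and 55.9 CPM in Baituling, without overlap. NRG1 was 2.26-fold higher in Baituling than in Kushen (log2 fold change -1.18 ± 0.06 for Kushen against Baituling, adjusted p 5.54e-13) and 1.85-fold higher in Baituling than in CKI (-0.89 ± 0.06, adjusted p 1.82e-11). The call past 2-fold was kept with Baituling replicate 1 alone (-1.25) and lost under library totals (-0.97). In CKI it exceeded Kushen by 0.29 ± 0.06 (adjusted p 0.000607), so that CKI lay between the single-herb injections.

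TGFA (transforming growth factor alpha, chromosome 2, 70674416 to 70781325) was highest in Kushen. It was at 102, 110 and 112 CPM in CKI, at 126, 125 and 120 CPM in Kushen and at 80.8, 82.4 and 78.7 CPM in Baituling. The 3 groups stood apart from each other. TGFA rose by 0.62 ± 0.05 in Kushen over Baituling (adjusted p 5.59e-10) and by 0.42 ± 0.05 in CKI over Baituling (adjusted p 1.27e-07), and its CKI level lay below that of Kushen (-0.20 ± 0.05, adjusted p 0.00191). Within a library, TGFA exceeded NRG1 per exon length by 21.3 ± 0.41 times in Kushen, 15.2 ± 0.605 times in CKI and 6.15 ± 0.264 times in Baituling. The size of this ratio depends on the length used, 21372 bases of exon sequence for NRG1 but 12518 in its longest transcript. The order of the groups does not depend on it.

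HBEGF (heparin-binding EGF-like growth factor, chromosome 5, 139712428 to 139726188), the most abundant ligand of the set per exon length, was highest in CKI. It was at 134, 136 and 144 CPM in CKI, at 94.1, 99.9 and 96.2 CPM in Kushen and at 121, 119 and 125 CPM in Baituling. CKI thus lay above both single-herb injections, with no overlap. HBEGF had the largest difference of the set between CKI and Kushen, a log2 fold change of 0.51 ± 0.04 (1.43-fold, adjusted p 4.45e-08). Against Baituling it was 0.18 ± 0.04 higher in CKI (adjusted p 0.00109) and lower in Kushen (-0.33 ± 0.04, adjusted p 1.71e-06).

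AREG (amphiregulin) and EREG (epiregulin) are neighbours on chromosome 4, at 75310853 to 75320722 and at 75230862 to 75254466, with 56.4 kb between them. AREG was at 39.0, 37.7 and 41.7 CPM in CKI, at 38.5, 40.8 and 35.8 CPM in Kushen and at 30.3, 24.9 and 25.9 CPM in Baituling. EREG was at 13.5, 14.8 and 13.9 CPM in CKI, at 11.5, 10.3 and 9.14 CPM in Kushen and at 16, 19.2 and 17.7 CPM in Baituling. Against Baituling these neighbours therefore went in opposite directions. AREG was higher in CKI by 0.54 ± 0.07 (adjusted p 1.49e-06) and in Kushen by 0.50 ± 0.07 (adjusted p 4.90e-06), with values of 0.37 and 0.34 when Baituling replicate 1 stood alone. EREG was lower in Kushen than in Baituling (-0.77 ± 0.10, adjusted p 5.48e-07).

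The smaller difference of EREG between CKI and Baituling was less firm. It was -0.32 ± 0.09 (adjusted p 0.00329), but -0.20 (adjusted p 0.19) with Baituling replicate 1 alone and -0.04 (adjusted p 0.72) under library totals. CKI exceeded Kushen in EREG by 0.45 ± 0.09 (adjusted p 0.000976), whereas AREG gave 0.04 there, with an interval of -0.10 to 0.18. The AREG to EREG ratio within a library, per exon length, lay between 8.84 and 10.5 for CKI, between 11.7 and 13.8 for Kushen and between 4.51 and 6.61 for Baituling. Of the other ligands of this gene cluster, EPGN had at most 4 counts, and BTC is given below.

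The stretches upstream of AREG and EREG are shown because these neighbours differed in opposite directions between Kushen and Baituling. Whether the stretches have a part in this was not tested. Each is the 250 bases before the RefSeq start, found by exact match on build GRCh37, plus strand, with a cyclic AMP response element (CRE, TGACGTCA) in capitals.
AREG, chr4:75310603-75310852: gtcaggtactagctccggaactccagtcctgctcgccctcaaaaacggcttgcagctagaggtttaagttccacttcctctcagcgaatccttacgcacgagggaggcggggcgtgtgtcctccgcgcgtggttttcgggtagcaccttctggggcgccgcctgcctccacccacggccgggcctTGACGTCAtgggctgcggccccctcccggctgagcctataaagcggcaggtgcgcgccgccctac
EREG, chr4:75230612-75230861: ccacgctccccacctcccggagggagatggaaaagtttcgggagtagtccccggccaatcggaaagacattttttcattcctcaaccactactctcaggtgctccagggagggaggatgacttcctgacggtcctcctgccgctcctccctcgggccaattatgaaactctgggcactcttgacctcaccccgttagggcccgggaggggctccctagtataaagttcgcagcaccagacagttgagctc

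The CRE of AREG begins 65 bases before the start, and no other promoter of the set found in the RefSeq table held one. Over 35116 promoter stretches of 250 bases before and 50 after a start, 1.85% held a CRE on either strand. The core GCGTG of the element bound by the aryl hydrocarbon receptor was found 139 and 124 bases before the AREG start and, on the other strand, 249 bases before the EREG start, and 36.5% of all promoter stretches held it. The same core lay 51 bases before the second start of TGFA and 25 bases after the start of HBEGF. The AP-1 motif TGAGTCA was found on either strand in 4.95% of all stretches and, in the set, 232 and 136 bases before the second RefSeq start of EGFR, which lies inside the gene. The antioxidant element TGACNNNGC, held by 13.3% of all stretches, had no match in the set. Matching letters are a description and no evidence of binding.

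The AREG counts are uncertain. On build GRCh37 the AREG stretch above matched a second place on chromosome 4, 75480379 to 75480628, next to the start of the annotated copy AREGB. Of 1085 windows of 150 bases along the longest AREG transcript, 86.2% were also present in AREGB. AREGB is not among the rows used here, and how reads that fit both copies were counted is not given in the sources used here.

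ERRFI1 (chromosome 1, 8064464 to 8086369) was the most abundant gene of the set, in CPM and per exon length. It was at 650, 659 and 670 CPM in CKI, at 566, 572 and 561 CPM in Kushen and at 771, 801 and 792 CPM in Baituling, without overlap. ERRFI1 was lower in Kushen than in Baituling (-0.48 ± 0.04, adjusted p 7.92e-10) and higher in CKI than in Kushen (0.22 ± 0.04, adjusted p 0.000117). Its fall in CKI against Baituling (-0.26 ± 0.04, adjusted p 3.79e-06) held on the TMM scale, with -0.24 for Baituling replicate 1 alone, but the value was 0.03 (adjusted p 0.434) under library totals. ERRFI1 and EGFR, inhibitor and target, thus lay in opposite order in Kushen and Baituling. ERRFI1 and NRG1 also overlap noncoding genes on the opposite strand.

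**Figure D3:**
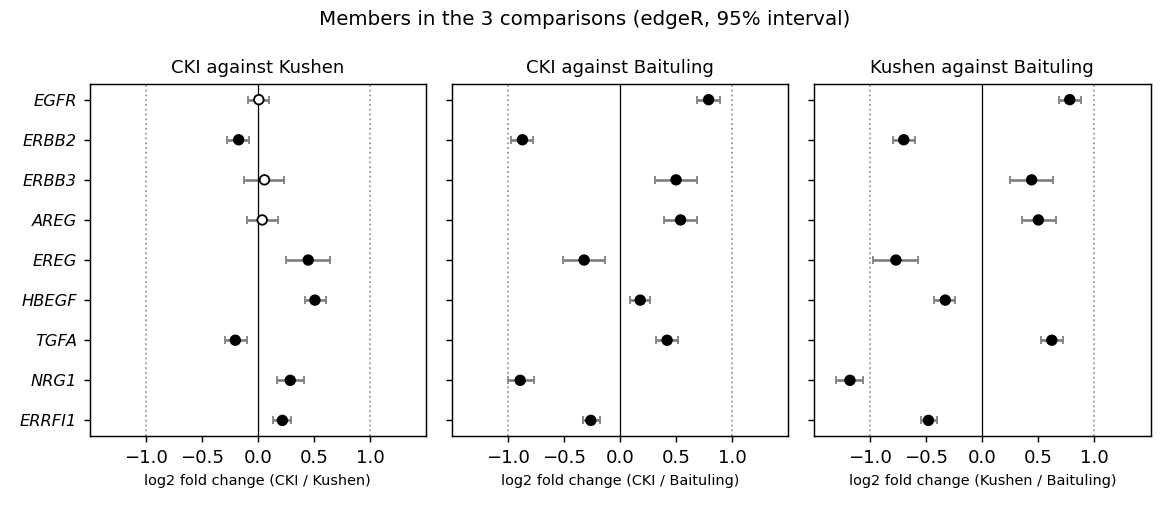
Log2 fold change of the 9 genes in the 3 comparisons, with 95% intervals from edgeR. Filled points had an adjusted p under 0.05 and open points did not, and dotted lines mark a 2-fold change. Only NRG1 in Kushen against Baituling (-1.18) lies past a dotted line, and EGFR, ERBB3 and AREG are open in CKI against Kushen.

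Levels of different genes were compared per length, as RPKM (CPM per kilobase of exon sequence). In CKI the order was ERRFI1 (158 RPKM), HBEGF (46.2), EGFR (26.8), AREG (24), TGFA (21.9), ERBB2 (5.50), EREG (2.46), NRG1 (1.44) and ERBB3 (1.11), and no neighbours in this order overlapped. In Kushen, TGFA (25.2 RPKM) and AREG (23.4) changed places and overlapped. With the longest transcript as length, AREG (31.1 RPKM) lay above TGFA (30.0) in Kushen, and EGFR (42.8) above HBEGF (41.0). Each of these pairs overlapped. In Baituling, AREG (16.5 RPKM), TGFA (16.4) and EGFR (15.5) could not be separated, and ERBB2 stood at 10.1. Ranks depended on the length used. With the longest transcript EGFR stood ahead of AREG in Baituling, still overlapping it, and clear of TGFA. There ERBB2 (21.1 RPKM) overlapped AREG (21.9) and lay above TGFA (19.6) without overlap. NRG1 (4.56 RPKM) likewise lay above EREG (3.82) in Baituling with this length.

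The median log2 fold change of the 9 genes was 0.06 for CKI against Kushen, 0.18 for CKI against Baituling and -0.33 for Kushen against Baituling, beside 0.01, 0.03 and 0.02 for all genes tested. Libraries did not overlap between the groups for 6, 9 and 9 of the 9 genes, in the same order. Over all genes tested this was so for 49.5%, 78.3% and 73.1%.

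Patterns most like those of the set were sought by Pearson correlation of log2 CPM over the 9 libraries, among 11965 genes, as a description. The genes closest to NRG1 were OASL (r = 0.9966), GPATCH4 (0.9957) and CYB5B (0.9956). Those closest to ERBB2 were EXOSC5 (0.9993), NCAPD2 (0.9988) and TUBB6 (0.9986). ERRFI1 was followed by NEDD9 (0.9976), SGK1 (0.9964) and CXCL8 (0.9953). The 9 libraries fall into 3 groups, and r was over 0.95 for 857 genes with NRG1, 1951 with ERBB2 and 246 with ERRFI1.

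The remaining ligands and receptors of the family were scarce. EGF itself, the ligand that names the family, had 161, 138 and 130 counts in CKI, 89, 107 and 86 counts in Kushen and 29, 28 and 37 counts in Baituling, and its CPM did not overlap between groups. It was 3.42-fold higher in CKI than in Baituling (log2 fold change 1.77 ± 0.17, adjusted p 1.49e-08), 2.37-fold higher in Kushen than in Baituling (1.24 ± 0.18, adjusted p 5.17e-06) and 1.44-fold higher in CKI than in Kushen (0.53 ± 0.14, adjusted p 0.00538). Betacellulin (BTC), on 21 to 51 counts a library, was lower with CKI than with Baituling (-0.76 ± 0.24, adjusted p 0.00767), a difference that did not pass under library totals (-0.47, adjusted p 0.078). NRG2, on 61 to 139 counts, had adjusted p-values of 0.181 to 0.844, but passed under library totals in CKI (0.57, adjusted p 0.00892) and in Kushen (0.45, adjusted p 0.0399) against Baituling. NRG4 had 7, 12 and 12 counts in CKI, 11, 4 and 12 counts in Kushen and 1, 5 and 3 counts in Baituling. Its log2 fold change of 1.34 in CKI against Baituling fell just short of the threshold (adjusted p 0.0508), and it passed under library totals (1.62, adjusted p 0.0187) and with Baituling replicate 1 alone (2.93, adjusted p 0.0414). For NRG4 in Kushen against Baituling the value was 1.22 (adjusted p 0.0847), and 1.43 (adjusted p 0.0433) under library totals. The receptor gene ERBB4 had 8, 7 and 7 counts in CKI, 7, 6 and 7 counts in Kushen and 1, 1 and 0 counts in Baituling, so Baituling lay apart, but the filter on low counts removed it before testing. EPGN had 0 to 4 counts and NRG3 0 to 2, and they were not tested either.

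Sheddases release the ligands from the membrane. Of 11 sheddases and their regulators, 4 rose and 6 fell in CKI against Baituling (90.9% passed, 76.1% of all genes), 5 rose and 6 fell in Kushen against Baituling (100%, 71.6% of all), and 1 rose and 5 fell in CKI against Kushen (54.5%, 39.8% of all). The balance turned under library totals, with 5 higher and 3 lower for CKI and 5 higher and 4 lower for Kushen against Baituling. TIMP3, an inhibitor of ADAM17, fell most, from 798 ± 11.5 CPM in Baituling to 308 ± 12.4 in Kushen and 237 ± 8.28 in CKI (SD, n = 3), with log2 fold changes of -1.38 ± 0.04 (adjusted p 8.13e-16) and -1.75 ± 0.04 (adjusted p 2.00e-17). ADAM12, which can shed HBEGF, rose by 1.45 ± 0.21 in CKI and by 1.06 ± 0.22 in Kushen over Baituling, at no more than 3.57 CPM. TSPAN12, a partner of ADAM10, rose by 0.97 ± 0.12 in CKI over Baituling and by 0.40 ± 0.11 over Kushen. RHBDL2, a membrane protease that can cleave EGF, fell against Baituling (-0.77 ± 0.15 in Kushen, -0.53 ± 0.14 in CKI). TIMP3 (-0.38 ± 0.04) and ADAM15 (-0.33 ± 0.05) were lower in CKI than in Kushen.

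Of 25 adaptors and kinases that carry the signal, 12 rose and 8 fell in CKI against Baituling, and 9 rose and 8 fell in Kushen against Baituling. This was 20 and 17 of the 25, near the shares of all genes (80% and 68% of the list, 76.1% and 71.6% of all). Under library totals 17 rose and 6 fell for CKI and 15 rose and 6 fell for Kushen. The GTPase HRAS (-0.98 ± 0.05 and -1.03 ± 0.05), the kinase SRC (-0.90 ± 0.05 and -0.90 ± 0.05) and MAPK3, which encodes ERK1 (-0.71 ± 0.06 and -0.58 ± 0.06), had the largest changes in these comparisons. In CKI against Kushen 7 rose and 6 fell (52% passed, 39.8% of all genes), against 13 and 0 under library totals. The largest were the adaptors SHC1 (0.30 ± 0.05) and GAB2 (0.29 ± 0.06) and the ERK kinase MAP2K1 (0.28 ± 0.04).

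Of 19 negative regulators and trafficking genes, 18 were tested. In CKI against Baituling 11 rose and 5 fell (88.9% passed, 76.1% of all genes), in Kushen against Baituling 10 rose and 5 fell (83.3%, 71.6% of all), and in CKI against Kushen 7 rose and 2 fell (50%, 39.8% of all). Under library totals these were 13 and 3, 13 and 4, and 8 and 0. With Baituling replicate 1 alone, 10 rose and 5 fell with CKI, and 7 rose and 5 fell with Kushen. LRIG1, a membrane protein that promotes the breakdown of EGFR, fell by 1.13 in Kushen and by 0.87 in CKI against Baituling on the log2 scale (adjusted p 3.07e-12 and 8.14e-11). SOCS3, an inhibitor of cytokine signalling, also fell (-0.79 ± 0.06 in CKI, -0.60 ± 0.06 in Kushen). SOCS4 (0.82 ± 0.06 in CKI, 0.53 ± 0.06 in Kushen) and SOCS5 (0.68 ± 0.06 in CKI, 0.61 ± 0.06 in Kushen), which promote EGFR turnover, rose over Baituling. SH3KBP1, an adaptor that links CBL to receptor uptake, was at 229 ± 0.816 CPM with CKI, 142 ± 2.5 CPM with Kushen and 133 ± 1.38 CPM with Baituling, and rose by 0.69 ± 0.04 in CKI over Kushen (adjusted p 1.51e-10). The ubiquitin ligase CBL (0.30 ± 0.07) and SOCS4 (0.29 ± 0.06) followed there.

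Genes known to respond to ERK activity were mostly lower in the injections with Kushen. Of 14 such genes, 11 fell and 2 rose in CKI against Baituling (median log2 fold change -0.42, beside 0.03 for all genes), and 10 fell and 2 rose in Kushen against Baituling (median -0.31, beside 0.02). That was 92.9% and 85.7% of the list passing, beside 76.1% and 71.6% of all genes, of which 37% and 36.1% fell. With Baituling replicate 1 alone the medians were -0.43 and -0.32, and under library totals, where 7 fell and 3 rose in each comparison, -0.14 and -0.10. FOSL1, a subunit of AP-1, fell most in Kushen (-0.81 ± 0.05, adjusted p 6.09e-12), followed by the RAS pathway inhibitor SPRY2 (-0.67 ± 0.04) and by PHLDA1 (-0.64 ± 0.04). In CKI against Baituling the ERK phosphatase DUSP5 went the other way (0.99 ± 0.05, adjusted p 2.23e-12), while DUSP4 (-0.82 ± 0.04) and CCND1 (-0.80 ± 0.04) fell. Between CKI and Kushen 6 of the 14 genes rose and 6 fell (85.7% passed, 39.8% of all genes), with the largest changes in CCND1 (-0.47 ± 0.04), DUSP5 (0.43 ± 0.05) and the receptor gene EPHA4 (-0.38 ± 0.10).

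**Figure D4:**
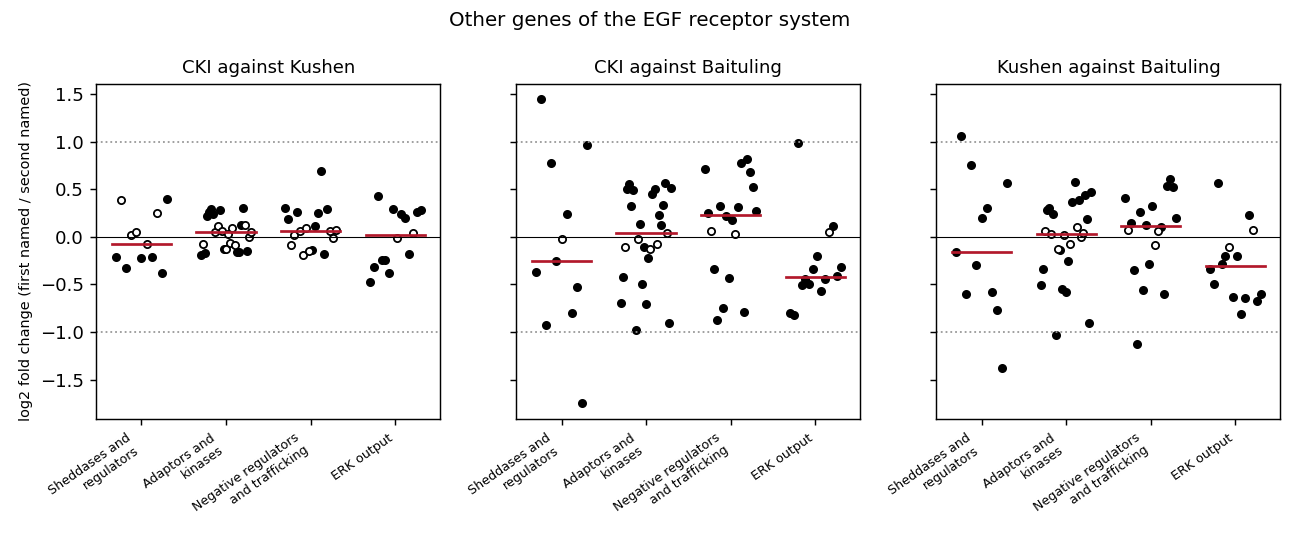
Log2 fold change of each tested gene in the lists of sheddases and regulators (11 genes), adaptors and kinases (25), negative regulators and trafficking (18) and ERK output (14), in the 3 comparisons. Filled points had an adjusted p under 0.05, red lines are list medians and dotted lines mark a 2-fold change. Most ERK output genes lie below 0 in both comparisons with Baituling, with medians of -0.42 and -0.31.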

How the data were processed

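Unstranded paired-end RNA-seq was made from 9 libraries of total RNA, 3 for each injection, grouped by their labels. Per the labels, the authors trimmed reads with Trim Galore 0.3.7 and aligned them with STAR 2.5.3a to hg19. The counting program and annotation are not given in the sources used here. The deposited table holds raw counts per gene. Of 24566 rows, 222 repeated an Ensembl gene with identical counts and were dropped. GENCODE gave GRCh37 positions (the hg19 assembly), exon lengths and the symbols of 24224 genes, RefSeq named another 99 and 21 stayed unnamed. Promoters came from RefSeq, which matched 7 of the 9 genes.

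Genes were filtered with filterByExpr (minimum count 10, minimum total 15), scaled by TMM and tested in a single edgeR 4.0.16 quasi-likelihood fit of all 9 libraries (R 4.3.3), two-sided, with Benjamini-Hochberg adjustment over 14195 genes. A gene was called at an adjusted p under 0.05 and a log2 fold change past 1. The fit was tested on simulated data. Alternatives included DESeq2 1.42.0 and limma 3.58.1. The submitters call the replicates biological without saying whether they were separate cultures, so p-values cover the spread between these libraries, which may be partly technical. The genes and lists were chosen with earlier results of these data known. Besides the 9 genes and the other ligands and receptors, the text names the 3 genes of each list with the largest change in a comparison among those with an adjusted p under 0.05.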

Additional observations from a re-analysis of the deposited data

How the results depend on the processing

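Of 423 log2 fold changes of the 9 genes under other scalings, filters, tools and sets of libraries, 412 kept their direction and side of the adjusted p threshold, 3 no longer passed and 8 changed sign. Those that no longer passed were ERBB2 in CKI against Kushen under library totals and EREG in CKI against Baituling under library totals and with Baituling replicate 1 alone. ERRFI1 in CKI against Baituling went from -0.26 to 0.0302 under library totals. The other sign changes were in CKI against Kushen, in genes that did not pass there under any of these settings. EGFR was -0.0070 with RLE size factors and -0.0106 in DESeq2. Without one replicate at a time, EGFR ranged from -0.0179 to 0.024, AREG from -0.0187 to 0.0831 and ERBB3 from -0.0161 to 0.0879, with EGFR below 0 without CKI replicate 1 or Kushen replicate 3, AREG without CKI replicate 3 or Kushen replicate 3, and ERBB3 without Kushen replicate 3. Library totals moved the median of all genes by 0.075 (CKI against Kushen), 0.287 (CKI against Baituling) and 0.212 (Kushen against Baituling), and all changes given are on the TMM scale. Under library totals the genes of the set called past 2-fold were 1 in CKI against Baituling (EGFR, 1.07) and 0 in Kushen against Baituling. With them 2527 of 3157 called genes were higher in CKI than in Baituling, in place of 1592 of 2715, and 1813 of 2431 were higher in Kushen, in place of 1207 of 2162. With at least 10 counts in every library, 102, 1808 and 1415 genes were called in these comparisons, in place of 270, 2715 and 2162, on fewer genes tested. Tested for a change beyond 2-fold, these were 42, 1515 and 1029, and the genes of the set past it were 0, 0 and 1. Without one replicate at a time, the numbers of called genes were 265 to 300, 2677 to 2839 and 2100 to 2264. With replicate number as a block 269, 2713 and 2158 genes were called and no call in the set changed. Same-numbered libraries had correlations of -0.075 to 0.123 in their deviations from group means, beside -0.148 to 0.181 for other pairs. This gave no sign that the numbers pair the libraries, but so few libraries cannot exclude it. Few counts limit what can be said of EPGN, NRG3, NRG4 and ERBB4.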
